A study of Homo sapiens with 18 samples.

Results

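ZMAT3, RPS27L, FBXW7, SUSD6 and CYFIP2 are targets of the tumour suppressor p53 whose products act on RNA or on protein. They were chosen by name, with earlier results of these data known, and all 5 are among the 3074 genes of the normalized count table. RNA enriched for poly(A) was sequenced from SJSA-1, an osteosarcoma cell line that carries extra copies of MDM2, the gene of the ubiquitin ligase that holds p53 down. The 6 groups had 3 libraries each. The DMSO group had vehicle throughout, and the NCS group had neocarzinostatin (NCS), which cuts DNA strands, at 1 µg/mL for 72 h. MI-1061 and MD-224, each at 1 µM, were given over the last 24 h either to vehicle cells or to cells already kept in NCS for 48 h, with the NCS renewed. MI-1061 blocks the pocket of MDM2 that binds p53. MD-224 is a degrader that joins an MDM2 ligand derived from MI-1061 to a group that recruits the ubiquitin ligase cereblon. The compounds thus differ at least by this added part, and the ligand itself may differ too. The labels call SJSA-1 a cell line with no further genotype and do not say whether the 3 libraries of a group came from separate cultures, so p-values measure the spread between libraries, which may be technical.

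Once p53 escapes MDM2 it binds DNA and raises transcription of many genes, MDM2 among them. ZMAT3 encodes a zinc-finger protein that binds RNA and affects mRNA stability and splicing. RPS27L encodes a paralog of the small-subunit ribosomal protein RPS27. FBXW7 encodes the substrate receptor of an SCF ubiquitin ligase that marks growth regulators such as cyclin E, MYC and JUN for destruction. SUSD6 encodes a membrane protein that works with TMEM127 in lowering MHC class I at the cell surface. CYFIP2 encodes a subunit of the WAVE complex, which drives actin assembly, and its protein also binds FMRP, a repressor of translation.

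RPS27L has a close relative in RPS27. The coding sequences of RPS27L and RPS27 in GENCODE 29 (GRCh38) are shown because reads from one could be assigned to the other, and capitals mark the bases that differ. The level of RPS27 was not analysed here.
RPS27L: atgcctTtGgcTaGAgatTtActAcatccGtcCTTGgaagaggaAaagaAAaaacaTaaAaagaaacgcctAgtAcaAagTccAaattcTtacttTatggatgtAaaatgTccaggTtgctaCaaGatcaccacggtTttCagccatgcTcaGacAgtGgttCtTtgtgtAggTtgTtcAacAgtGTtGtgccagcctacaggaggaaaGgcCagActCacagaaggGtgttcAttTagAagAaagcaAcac
RPS27: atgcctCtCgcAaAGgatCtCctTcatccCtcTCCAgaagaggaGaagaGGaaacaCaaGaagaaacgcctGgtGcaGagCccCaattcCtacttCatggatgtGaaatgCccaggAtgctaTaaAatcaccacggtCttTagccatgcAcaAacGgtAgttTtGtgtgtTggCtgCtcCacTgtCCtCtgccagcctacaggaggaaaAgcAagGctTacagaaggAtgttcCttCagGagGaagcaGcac
Both have 252 bases, of which 56 differ, giving 77.8% identity. The longest stretch they share is 20 bases. CYFIP2 and CYFIP1 are long coding sequences (3681 and 3759 bases) whose longest shared stretch is 36 bases.

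The promoters were read because the members moved together. RefSeq (GRCh38.p14) lists 10 starts for the 5 genes, 4 of them for FBXW7, and each window of 300 bases reaches from 250 before the start to 50 after it. The 10-base p53 half-site, which reads the same on both strands, was searched without mismatch. It was in 1 of the 10 windows, that of RPS27L, and in 6.63% of the 35116 promoters of the table. The 250 bases before the RPS27L start are at chr15:63157478-63157727, minus strand, and are shown with that half-site in capitals, which begins 59 bases before the start.
RPS27L promoter: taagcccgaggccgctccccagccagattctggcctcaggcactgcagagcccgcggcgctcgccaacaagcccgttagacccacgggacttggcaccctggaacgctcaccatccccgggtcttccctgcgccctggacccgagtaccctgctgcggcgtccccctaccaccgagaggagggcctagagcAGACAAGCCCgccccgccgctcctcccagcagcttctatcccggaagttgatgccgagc
A full site (half-sites up to 13 bases apart) was in 0 of the 10 windows and in 2.93% of all promoters. Up to 2 mismatches in all were allowed, but none at the fixed C and G in the core of each half-site. A match of letters is a description only, and sites outside these windows were not searched.

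All listed genes had a higher mean with NCS and MI-1061 than with DMSO, and the listing rule is not given in the sources used here. The lowest ratio of the mean with NCS and MI-1061 to the mean with DMSO was 1.75, and the median was 2.997. For the members that ratio was 6.40 for ZMAT3, 2.95 for RPS27L, 6.83 for FBXW7, 7.74 for SUSD6 and 15.8 for CYFIP2, a description without a test. No listed gene fell below 1.75, so the table is one-sided in that contrast, though the rule that made it so is not given. Comparisons below that use DMSO or NCS with MI-1061 share libraries with that ratio. The shares of all tested genes given below are shares of this one-sided table, not of all expressed genes. The members had 796 to 36152 reads in a library, so counting error (at most 3.54%) was small beside the spread of replicates (coefficient of variation 3.15 to 38.9%, median 9.97%). MDM2, the target of both compounds, rose 11.6-fold in RNA with MI-1061 and 3.03-fold with MD-224, and CDKN1A, the cell-cycle inhibitor gene most used as a p53 readout, 30.1-fold and 7.67-fold. Among 10 osteoblast markers 3 were listed, with summed levels of 70302 to 196765 over the 18 libraries, and among 12 markers of other cell types 4 were listed, CD68, ITGAM, LAPTM5 and GFAP. The summed level of those 4 was 458 to 1116 in the DMSO libraries, 2341 to 2535 after NCS, 2499 to 3142 under MI-1061 and 816 to 1109 under MD-224. In cells given NCS first it was 4894 to 5021 under MI-1061 and 3470.0 to 4583 under MD-224. None of the 4 was at 0 in all libraries of a group, and their part in the results was not tested. The other markers were not analysed here.

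**Figure D1:**
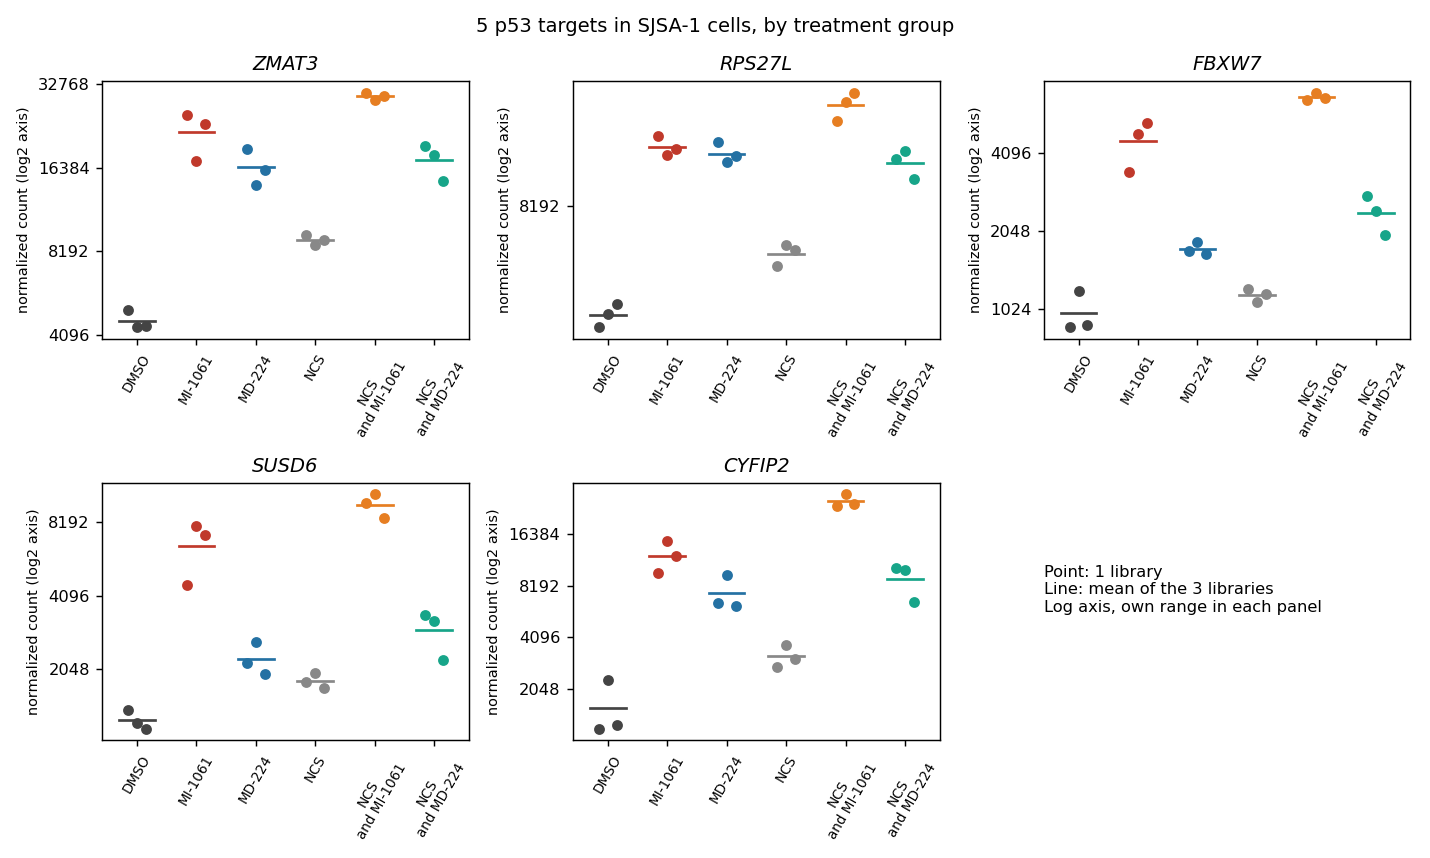
Normalized count (log2 axis, own range per gene) of each gene in the 18 libraries, by treatment group; points are libraries and lines are the means of 3. For all 5 genes DMSO has the lowest mean and NCS with MI-1061 the highest, with all 3 of its libraries above every other library.

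ZMAT3 (chr3:179017223-179072513, minus strand, in RefSeq on GRCh38.p14, as for the positions below) had normalized counts of 5051, 4386 and 4407 in the 3 DMSO libraries and of 9396, 8655 and 8999 with NCS. With MI-1061 it was at 25262, 17258 and 23435, and with MD-224 at 19092, 14221 and 16042. The DMSO and NCS libraries did not overlap with each other or with the compounds, while MI-1061 replicate 2 lay inside the MD-224 range. After NCS, ZMAT3 was at 30449, 28589 and 29606 with MI-1061 and at 19566, 18228 and 14714 with MD-224. The means ran from 4615 ± 378 (SD, n = 3) with DMSO through 9017 ± 371 (NCS), 16452 ± 2461 (MD-224), 17503 ± 2506 (NCS and MD-224) and 21985 ± 4195 (MI-1061) to 29548 ± 931 (NCS and MI-1061). In this order MD-224 overlapped with NCS and MD-224, and the latter with MI-1061. The other neighbours were apart. In bulk RNA, fewer expressing cells and less RNA per cell cannot be told apart.

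RPS27L (chr15:63148249-63157477, minus strand) had the narrowest range of the 5 genes. It was at 4393, 4704 and 4936 with DMSO and at 6004, 6699 and 6527 with NCS. MI-1061 brought it to 11749.5, 10643 and 10957, and MD-224 to 11355, 10243 and 10584. The libraries of the compounds overlapped. After NCS it was at 12665, 14014 and 14664 with MI-1061 and at 10449, 10863 and 9395 with MD-224. The mean with NCS and MD-224 (10236 ± 756, n = 3) was below that with MD-224 alone (10727 ± 570.1), with overlapping libraries, and MI-1061 alone (11117 ± 570.2) overlapped too. The other means were 4678 ± 273 with DMSO, 6410.1 ± 362 with NCS and 13781 ± 1019.6 with NCS and MI-1061, each apart from its neighbours.

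FBXW7 (chr4:152320544-152536092, minus strand) had counts of 871, 1201 and 884 with DMSO and of 1223, 1089 and 1166 with NCS. These groups overlapped through DMSO replicate 2. With MI-1061 it was at 3446, 4853 and 5359.6, and with MD-224 at 1718, 1863 and 1671, so that the lowest MI-1061 library lay well above the highest MD-224 library. After NCS the values were 6542, 6989.97 and 6654 with MI-1061 and 2788, 2441 and 1975 with MD-224. The means rose in the order DMSO (985 ± 187, n = 3), NCS (1159 ± 67.1), MD-224 (1750.5 ± 100.1), NCS and MD-224 (2402 ± 408), MI-1061 (4553 ± 992) and NCS and MI-1061 (6729 ± 233). The DMSO and NCS libraries overlapped, and no other neighbours in the order did. GENCODE 29 gives FBXW7 11 coding transcripts with 8 starts, and the table does not separate them. An antisense gene, FBXW7-AS1, shares 127 of the 11095 exon bases of FBXW7, and whether counting used strand is not given in the sources used here.

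SUSD6 (chr14:69611596-69715144, plus strand) followed a like course. It was at 1379.9, 1223 and 1159 with DMSO and at 1803, 1970.1 and 1706 with NCS, with no overlap. With MI-1061 it reached 4525, 7892 and 7302, and with MD-224 2165, 2649 and 1949. The MD-224 libraries overlapped with those of NCS alone, and all MI-1061 libraries were higher than both. After NCS it was at 9844, 10679.9 and 8583 with MI-1061 and at 3394, 3231 and 2234 with MD-224. The means were 1254 ± 114 (n = 3) for DMSO, 1826 ± 134 for NCS, 2255 ± 358 for MD-224, 2953 ± 628 for NCS and MD-224, 6573 ± 1798 for MI-1061 and 9702 ± 1056 for NCS and MI-1061. In this order MD-224 overlapped with NCS and with NCS and MD-224, and the other neighbours were apart.

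CYFIP2 (chr5:157266123-157395594, plus strand) had the widest range. Its DMSO libraries were at 1207, 2315 and 1272, replicate 2 standing high but still below every NCS library, and its NCS libraries at 2766, 3687 and 3076. With MI-1061 it was at 9747, 14865 and 12109, and with MD-224 at 6506, 9395 and 6237. In each of these 4 groups replicate 2 was the highest. After NCS it was at 23700.5, 27699.7 and 24458 with MI-1061 and at 10335, 10089 and 6568 with MD-224. The means were 1598 ± 622 (n = 3), 3176 ± 468, 7379 ± 1751, 8997 ± 2107, 12240.3 ± 2562 and 25286 ± 2124 in the order DMSO, NCS, MD-224, NCS and MD-224, MI-1061, NCS and MI-1061. NCS and MD-224 overlapped with both of its neighbours in this order, and no other neighbours overlapped. Overlapping exons of 4 genes on the opposite strand, ADAM19 among them, cover from 0.591% to 2.14% of the CYFIP2 exon bases each.

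NCS alone, compared with DMSO to show the effect of damage without a compound, raised ZMAT3 and CYFIP2 most, RPS27L and SUSD6 less. Fold changes here and below are from limma on log2(normalized count + 1), with p-values adjusted (Benjamini-Hochberg) over the 3073 genes tested, and calls are at 0.05. ZMAT3 rose 1.96-fold (log2 0.97, SE 0.14; adjusted p = 4.25e-05) and CYFIP2 2.07-fold (log2 1.05, SE 0.24; adjusted p = 0.00167). RPS27L rose 1.37-fold (adjusted p = 0.000881) and SUSD6 1.46-fold (adjusted p = 0.026). FBXW7 was not called, at 1.19-fold (adjusted p = 0.209; 95% interval of the log2 difference −0.10 to 0.60). Thus 4 of 5 were higher and 0 lower, where 54% of all tested genes were higher and 1.3% lower, and the median log2 was 0.54 for the 5 against 0.66 for all. The count is close to the background of the table. The SUSD6 call was lost in 4 of the 6 fits that left out 1 library (DMSO replicates 2 and 3, NCS replicates 1 and 2), with adjusted p of 0.0102 to 0.0818 over the alternatives that kept the authors' scaling. TMM scaling, which takes most genes of a table as steady, moved the median of all genes by −0.60. The table does not meet this for NCS with MI-1061 against DMSO, where all listed genes had a higher mean. TMM scaling thus cannot decide, here or below, whether a call or sign is right. With it 456 genes were higher and 467 lower in place of 1659 and 40, none of the 5 was called, and RPS27L, FBXW7 and SUSD6 took a negative sign (log2 −0.16, −0.37 and −0.07).

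MI-1061 without NCS raised all 5 genes, CYFIP2 most and RPS27L least. CYFIP2 rose 7.90-fold (log2 2.98, SE 0.24; adjusted p = 8.79e-09), SUSD6 5.10-fold (log2 2.35, SE 0.19; adjusted p = 1.28e-08) and ZMAT3 4.71-fold (log2 2.24, SE 0.14; adjusted p = 7.53e-10). FBXW7 rose 4.59-fold (log2 2.20, SE 0.17; adjusted p = 4.19e-09) and RPS27L 2.38-fold (log2 1.25, SE 0.10; adjusted p = 5.05e-09). Of all tested genes 67.6% were higher and 4.46% lower, with a median log2 of 0.996 against 2.24 for the 5. All 5 calls held under each of the 14 alternatives, TMM scaling included, where the median of all genes moved by −0.98 and RPS27L was left with a log2 of 0.26; that scaling called 941 genes higher and 925 lower in place of 2076 and 137.

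MD-224 without NCS also raised all 5 genes, in a different order of size. CYFIP2 rose 4.75-fold (log2 2.25, SE 0.24; adjusted p = 2.82e-06) and ZMAT3 3.55-fold (log2 1.83, SE 0.14; adjusted p = 2.03e-07). RPS27L rose 2.29-fold (log2 1.20, SE 0.10; adjusted p = 2.03e-07). FBXW7 and SUSD6 rose by nearly the same amount, 1.79-fold (log2 0.84, SE 0.17; adjusted p = 0.000718) and 1.79-fold (log2 0.84, SE 0.19; adjusted p = 0.0026). The background was 39.9% higher and 2.8% lower, and the medians were 1.20 for the 5 and 0.48 for all tested genes. With TMM scaling 327 genes were higher and 357 lower in place of 1225 and 86, and 3 of the 5 kept their call, FBXW7 (adjusted p = 0.111) and SUSD6 (adjusted p = 0.161) losing it.

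After NCS the inhibitor again raised all 5, by 2.999 (SE 0.24) on the log2 scale for CYFIP2, 2.54 (SE 0.17) for FBXW7, 2.41 (SE 0.19) for SUSD6, 1.71 (SE 0.14) for ZMAT3 and 1.10 (SE 0.10) for RPS27L, against the NCS libraries. Their limma adjusted p were 8.16e-09, 9.37e-10, 9.46e-09, 1.36e-08 and 2.30e-08. Of all tested genes 70.5% were higher and 0.748% lower (median log2 0.97), and this comparison uses the libraries with NCS and MI-1061. The RPS27L call alone was lost with TMM scaling (log2 0.11, adjusted p = 0.438), under which 733 genes were higher and 593 lower in place of 2168 and 23.

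All 5 genes were also higher with the degrader after NCS than with NCS alone, CYFIP2 most and RPS27L and SUSD6 least. CYFIP2 rose 2.79-fold (log2 1.48, SE 0.24; adjusted p = 0.000399), FBXW7 2.05-fold (log2 1.04, SE 0.17; adjusted p = 0.000363) and ZMAT3 1.93-fold (log2 0.95, SE 0.14; adjusted p = 0.000215). RPS27L rose 1.595-fold (log2 0.67, SE 0.10; adjusted p = 0.000133) and SUSD6 1.59-fold (log2 0.67, SE 0.19; adjusted p = 0.0273). Only 15.1% of all tested genes were higher and 0% lower, so that 5 of 5 stood beside 465 of 3073. The means compared are neither DMSO nor NCS with MI-1061, but those libraries enter the spread, estimated over all 6 groups. With the replicate number as a block 755 genes were higher, and without 1 library there were 298, 287 and 283 (NCS replicates 1, 2 and 3) and 186 (NCS and MD-224 replicate 1). The 5 calls were the same with the block. The SUSD6 call was lost in 5 of the 6 fits without 1 library (adjusted p up to 0.152), all but that without NCS and MD-224 replicate 3. With TMM scaling 116 genes were higher and 6 lower, and 3 of the 5 were called, RPS27L (adjusted p = 0.0894) and SUSD6 (adjusted p = 0.395) dropping out.

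**Figure D2:**
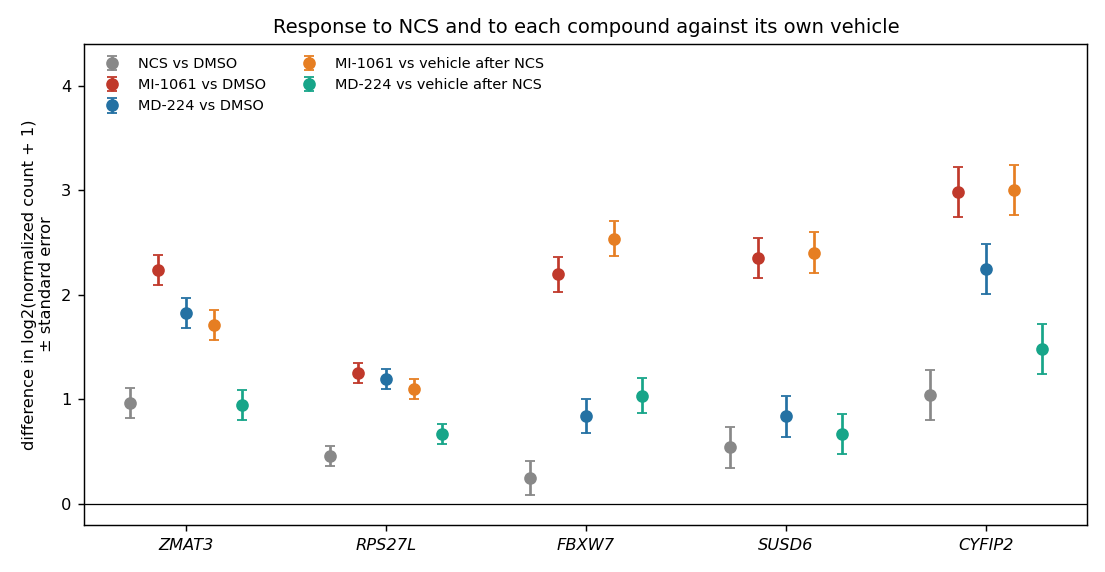
Difference in log2(normalized count + 1) of each gene, against DMSO for NCS and each compound alone and against NCS for the compounds after NCS, from limma, with bars of 1 standard error (3 libraries a group). Without NCS the gap between MI-1061 and MD-224 is widest for SUSD6 and FBXW7 and near 0 for RPS27L; after NCS it is widest for SUSD6, with CYFIP2 and FBXW7 close behind.

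Degrader and inhibitor were compared at the same dose and time, first without NCS. SUSD6 and FBXW7 differed most. FBXW7 was 2.56-fold lower with MD-224 than with MI-1061 (log2 −1.36, SE 0.17; adjusted p = 2.72e-06) and SUSD6 2.86-fold lower (log2 −1.51, SE 0.19; adjusted p = 4.53e-06). CYFIP2 was 1.66-fold lower (log2 −0.73, SE 0.24; adjusted p = 0.0132) and ZMAT3 1.33-fold lower (log2 −0.41, SE 0.14; adjusted p = 0.0188). RPS27L did not pass, with a log2 difference of −0.05 (SE 0.10; adjusted p = 0.65) and a 95% interval of −0.25 to 0.15. So 4 of 5 were lower, where 49.8% of tested genes were lower and 12.4% higher, and the median log2 was −0.73 for the 5 and −0.58 for all. The means compared here are neither DMSO nor NCS with MI-1061. Those libraries still enter the p-values, because the spread was estimated over all 6 groups.

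The calls of FBXW7 and SUSD6 held under all 14 alternatives, those of CYFIP2 and ZMAT3 did not. ZMAT3 was lost in 4 of the 6 fits without 1 library (MI-1061 replicates 1 and 3, MD-224 replicates 2 and 3), with the compared groups alone (adjusted p = 0.0735) and by the count tests on recovered reads, edgeR (adjusted p = 0.055) and DESeq2 (adjusted p = 0.0631), over a range of 0.0018 to 0.0924 with the authors' scaling. CYFIP2 was lost without MI-1061 replicate 2 (adjusted p = 0.0677) and without MD-224 replicate 3 (adjusted p = 0.0597; range 0.00057 to 0.0677). TMM scaling moved the median of all genes by 0.49, with 847 genes higher and 941 lower in place of 381 and 1531. With it ZMAT3 (log2 0.09, adjusted p = 0.637) and RPS27L (log2 0.45, adjusted p = 0.00174) were on the higher side with MD-224, RPS27L past the threshold, while FBXW7 (log2 −0.86) and SUSD6 (log2 −1.01) stayed lower.

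After NCS all 5 genes were lower with MD-224 than with MI-1061. The log2 difference was −1.73 (SE 0.19; adjusted p = 1.64e-06) for SUSD6, −1.52 (SE 0.24; adjusted p = 4.76e-05) for CYFIP2 and −1.50 (SE 0.17; adjusted p = 1.44e-06) for FBXW7. It was −0.77 (SE 0.14; adjusted p = 0.000228) for ZMAT3 and −0.43 (SE 0.10; adjusted p = 0.0011) for RPS27L. Here 54.7% of tested genes were lower and 0.748% higher, with a median log2 of −0.67 against −1.50 for the 5. With TMM scaling the split was 357 higher and 549 lower in place of 23 and 1680, 3 of the 5 kept their call, ZMAT3 lost it (log2 −0.10) and RPS27L changed sign without passing (log2 0.24, adjusted p = 0.102).

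**Figure D3:**
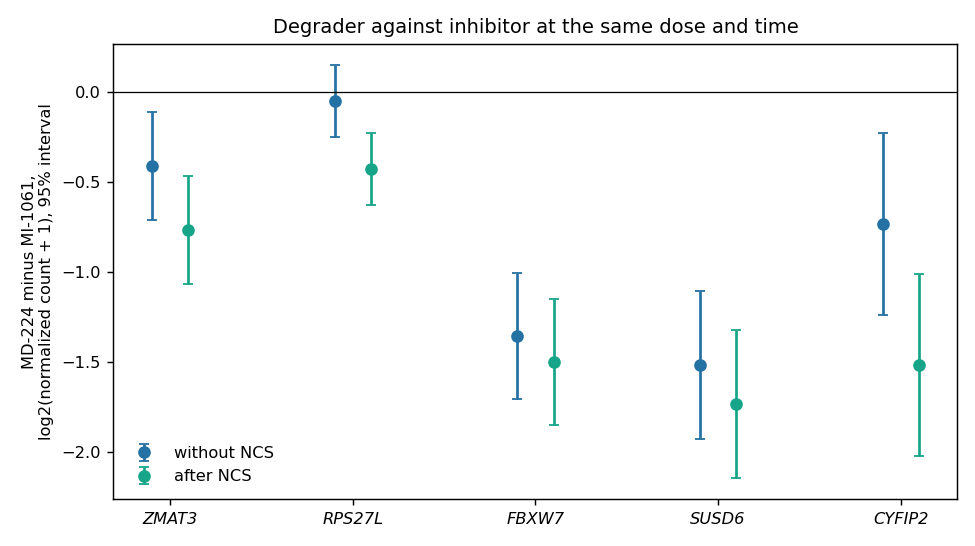
MD-224 minus MI-1061 on the log2(normalized count + 1) scale for each gene, without and after NCS, with 95% intervals from limma (3 libraries a group). The intervals of FBXW7 and SUSD6 end at −1.01 or lower in both settings, and that of RPS27L without NCS spans 0.

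A ratio of 2 genes within a library does not depend on how libraries were scaled, and these ratios, chosen after the values were seen, are given as description. FBXW7 over ZMAT3 was 0.215 ± 0.0733 (SD, n = 3; 0.136 to 0.281) with MI-1061 and 0.108 ± 0.0208 (0.09 to 0.131) with MD-224. After NCS it was 0.228 ± 0.0151 with MI-1061 and 0.137 ± 0.00486 with MD-224. In neither setting did the libraries of the compounds overlap. SUSD6 over ZMAT3 was 0.316 ± 0.139 with MI-1061 and 0.140 ± 0.0399 with MD-224, overlapping through MI-1061 replicate 1 (0.179, against a highest of 0.186 with MD-224), and 0.329 ± 0.0421 against 0.167 ± 0.0137 after NCS, with no overlap. RPS27L over ZMAT3 went the other way, with a mean of 0.516 ± 0.0868 with MI-1061 and 0.658 ± 0.0627 with MD-224 (overlapping), and of 0.467 ± 0.0444 and 0.589 ± 0.0526 after NCS (apart). CYFIP2 over ZMAT3 overlapped between the compounds without NCS (0.588 ± 0.246 and 0.463 ± 0.173) and was apart after NCS (0.858 ± 0.0991 and 0.509 ± 0.056).

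These ratios also stood apart between NCS alone and DMSO for 3 of the 4 genes. FBXW7 over ZMAT3 was 0.216 ± 0.0524 with DMSO and 0.128 ± 0.00234 with NCS. SUSD6 over ZMAT3 was 0.272 ± 0.00806 and 0.203 ± 0.0213, and RPS27L over ZMAT3 was 1.02 ± 0.133 and 0.713 ± 0.0684. In all 3 ratios the NCS libraries lay below the DMSO libraries without overlap. CYFIP2 over ZMAT3 was 0.352 ± 0.154 and 0.354 ± 0.0666. All 4 ratios share ZMAT3, so they are not separate results. ZMAT3 rose 1.96-fold with NCS, beside a median of 1.58-fold for all tested genes. For how many other genes such a ratio stands apart was not counted, here or between the compounds. With 3 libraries against 3 an exact two-sided permutation test of such a ratio cannot go below 0.1, and none was run.

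**Figure D4:**
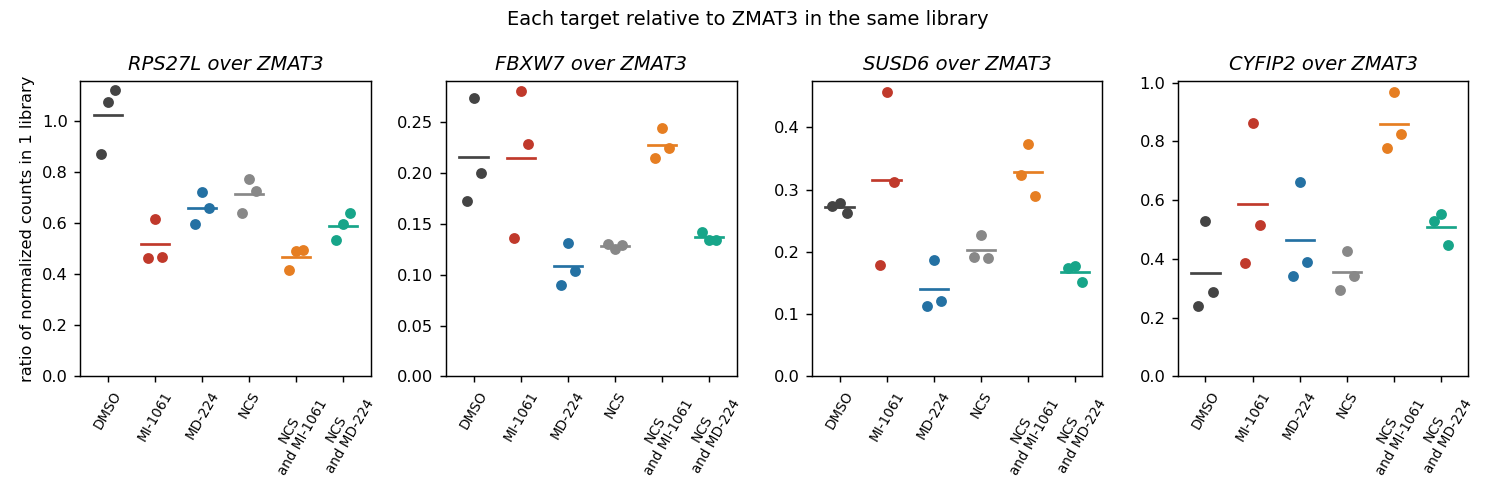
Ratio of the normalized count of each gene to that of ZMAT3 in the same library (axes start at 0), by group; points are libraries and lines are means of 3. FBXW7 and SUSD6 are lower relative to ZMAT3 with MD-224 than with MI-1061 on average, and RPS27L is higher.

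The effect of NCS was also measured in the presence of each compound, and the effects under the compounds were not tested against each other. With MI-1061, NCS raised all 5 genes over MI-1061 alone: CYFIP2 2.09-fold (adjusted p = 0.000843), SUSD6 1.51-fold (adjusted p = 0.0123), FBXW7 1.503-fold (adjusted p = 0.00491), ZMAT3 1.36-fold (adjusted p = 0.011) and RPS27L 1.24-fold (adjusted p = 0.00922). The background was 55.9% higher and 10.1% lower, and the all-gene median log2 was 0.71 against 0.59 for the 5. The ZMAT3 call was lost without MI-1061 replicate 2 (adjusted p = 0.0785; range 0.00165 to 0.0785) and the SUSD6 call without MI-1061 replicate 1 (adjusted p = 0.0938) and without NCS and MI-1061 replicate 2 (adjusted p = 0.0509; range 0.00457 to 0.0938). With TMM scaling, which gave 930 genes higher and 729 lower in place of 1717 and 309, CYFIP2 was no longer called (log2 0.45) and the other 4 had a negative sign. RPS27L alone passed on that side (log2 −0.31, adjusted p = 0.0223).

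In the presence of MD-224, FBXW7 was 1.36-fold higher with NCS (log2 0.44, SE 0.17; adjusted p = 0.0417) and the other 4 did not pass. Their 95% intervals of the log2 difference were −0.21 to 0.39 for ZMAT3, −0.27 to 0.13 for RPS27L, −0.03 to 0.79 for SUSD6 and −0.22 to 0.79 for CYFIP2. The 1 of 5 stood beside 39% of tested genes higher and 0.586% lower. MDM2 and CDKN1A were 2.04-fold and 3.37-fold higher with NCS in MD-224 (adjusted p = 0.000176 and 1.05e-06), though the difference between genes was not tested. The FBXW7 call was lost in 5 of the 6 fits without 1 library (all but that without NCS and MD-224 replicate 3) and with the compared groups alone (adjusted p = 0.0577; range 0.0186 to 0.188). Without NCS and MD-224 replicate 3, which was the lowest of its group for all 5 genes, SUSD6 passed (adjusted p = 0.0351). With TMM scaling the split was 428 higher and 223 lower in place of 1198 and 18. Under it all 5 had a negative sign and RPS27L passed (log2 −0.52, adjusted p = 0.0027).

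The interaction (log2 response to a compound in NCS-treated cells less that in vehicle cells) was negative for ZMAT3 with both compounds. For MD-224 it was −0.88 (SE 0.20; adjusted p = 0.0119) for ZMAT3 and −0.52 (SE 0.14; adjusted p = 0.021) for RPS27L, both called lower, where 7.19% of tested genes were lower and 4.07% higher. ZMAT3 thus rose 3.55-fold with MD-224 in vehicle cells and 1.93-fold after NCS, and its call held under all 18 alternatives. The RPS27L call was lost without NCS replicate 2 (adjusted p = 0.061), without NCS replicate 3 (0.0578), without NCS and MD-224 replicate 3 (0.0555) and with TMM scaling (0.14). CYFIP2 had a log2 interaction of −0.77 (SE 0.34; adjusted p = 0.163) and FBXW7 and SUSD6 of 0.19 and −0.17, none of them called. The CYFIP2 value was −1.07 (adjusted p = 0.0242) without DMSO replicate 2, its high DMSO library, and it also passed with a replicate block (log2 −0.77, adjusted p = 0.0229; range over the alternatives 0.0229 to 0.342). TMM scaling turned the split of all genes from 125 higher and 221 lower to 201 and 127. Leaving out 1 library took the lower count to between 107 and 135 without MD-224 replicate 3, NCS replicate 2 or 3, or NCS and MD-224 replicate 3, and the higher count to between 63 and 79 without DMSO replicate 1, MD-224 replicate 3, NCS replicate 2 or 3, or NCS and MD-224 replicate 1.

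For MI-1061 the interaction of ZMAT3 was −0.52 (SE 0.20; adjusted p = 0.0431), the only 1 of 5 called, beside 20.8% of all tested genes lower and 23.5% higher. This call was lost in 10 of the 12 fits without 1 library, all but those without DMSO replicate 1 and MI-1061 replicate 2, with adjusted p of 0.00617 to 0.107 over the alternatives. It was also lost with TMM scaling (adjusted p = 0.0559). For the others the 95% intervals were −0.43 to 0.14 for RPS27L, −0.16 to 0.83 for FBXW7, −0.53 to 0.63 for SUSD6 and −0.69 to 0.73 for CYFIP2.

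The nearest genes of the table were partly shared between members. Over the 18 libraries, Pearson correlations of log2(normalized count + 1) among the 5 were highest between FBXW7 and SUSD6 (0.982) and between ZMAT3 and RPS27L (0.977) and lowest between RPS27L and SUSD6 (0.826). All libraries share the treatments, so high values are common and no p is given. Among 2399 genes with a mean of at least 50 and a current symbol, the 3 nearest to ZMAT3 were RPS27L, TP53INP1 (0.975), an autophagy and stress regulator, and SULF2 (0.968), an extracellular sulfatase. RPS27L lay nearest to ZMAT3, SULF2 (0.965) and TRIM22 (0.962), a TRIM family protein with antiviral roles. FBXW7 lay nearest to EFNB1 (0.992), the membrane ligand ephrin-B1, PHLDB3 (0.988) and RNF19B (0.986), a RING-type ubiquitin ligase. For SUSD6 the nearest were PHLDB3 (0.991), EFNB1 (0.990) and FBXW7, and for CYFIP2 they were BTG2 (0.991), an antiproliferative factor that promotes mRNA deadenylation, SULF2 (0.986) and SPATA18 (0.982), which acts in mitochondrial quality control. EFNB1, nearest to FBXW7, had mean normalized counts of 1064 (DMSO), 13106 (MI-1061) and 2346 (MD-224). SULF2, near ZMAT3, had 2265, 27655 and 14804.

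Of 21 other p53 targets in RNA or protein control on the list, 18 were in the table and tested. In the MI-1061 comparison 17 of the 18 were higher and 0 lower, beside 67.6% of all tested genes higher (median log2 2.07, against 0.996 for all genes). In the MD-224 comparison 14 were higher and 0 lower, beside 39.9% (0.76 against 0.48), and NCS alone gave 9 higher and 0 lower, beside 54% (0.40 against 0.66). With MD-224 against MI-1061 without NCS 13 of the 18 were lower and 0 higher, beside 49.8% of all tested genes lower (medians −0.97 and −0.58). After NCS 17 were lower and 0 higher, beside 54.7% (medians −1.11 and −0.67). TMM scaling gave 12 higher and 4 lower for MI-1061, 7 and 0 for MD-224, and 2 and 6 for NCS. For the degrader against the inhibitor it gave 4 higher and 11 lower without NCS and 1 and 9 after NCS.

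BTG2 rose by 3.85 on the log2 scale with MI-1061 and by 2.64 with MD-224, and TP53INP1 by 3.45 and 2.50. AEN, a nuclease induced by p53, rose by 2.29 and 0.80, and PLK2, a stress-responsive kinase, by 1.72 and 0.72. Between degrader and inhibitor without NCS the log2 difference was −1.49 for AEN, close to the values of FBXW7 and SUSD6, and −0.95 for TP53INP1. The 18 genes spanned log2 differences of −2.11 to 0.36 between MD-224 and MI-1061 without NCS, a range that holds all 5 members. Of 41 further p53 targets, among them MDM2, CDKN1A and genes of apoptosis and DNA repair, 38 were in the table. Under MI-1061 37 were higher and 0 lower (33 and 2 by TMM scaling), beside 67.6% higher, with medians of 2.40 and 0.996. Under MD-224 26 were higher and 0 lower (22 and 2 by TMM scaling), beside 39.9% higher, with medians of 1.21 and 0.48. For degrader against inhibitor without NCS 36 were lower and 0 higher (28 and 0 by TMM scaling), beside 49.8% lower, with medians of −1.55 and −0.58.

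**Figure D5:**
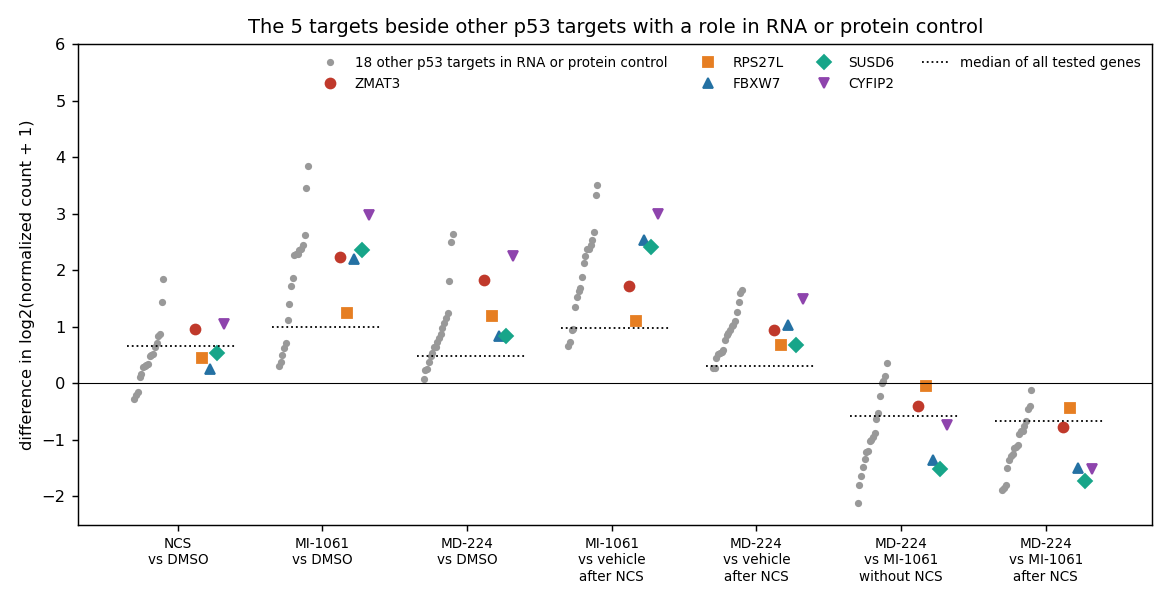
Difference in log2(normalized count + 1) for the 5 genes (symbols) and the 18 other listed p53 targets in RNA or protein control (grey), in 7 comparisons; dotted lines are medians of all 3073 tested genes. The 5 genes lie within the range of the grey points in all 7 comparisons.

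Of 15 WAVE complex and FMRP partner genes 0 were listed, of 14 SCF and F-box WD genes 2, of 9 ZMAT family and ELAV-like genes 1 (ZMAT4) and of 21 ribosomal protein genes 1, RPS19. The other genes of these lists were not analysed here. RPS19 rose by 1.65 (log2, SE 0.16) with MI-1061 and by 0.54 with MD-224, beside all-gene medians of 0.996 and 0.48. With TMM scaling it was at 0.65 and 0.043, called higher with MI-1061 and not with MD-224.

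Of 18 genes of MHC class I and SUSD6 partners 7 were listed. Under MI-1061 6 were higher and 0 lower, beside 67.6% of all tested genes higher (median log2 0.85, against 0.996 for all genes). TMM scaling gave 1 and 1. Under MD-224 1 was higher and 0 lower, beside 39.9% higher (median log2 0.40, against 0.48), where TMM scaling gave 0 and 1. TMEM127, the partner of SUSD6, rose by 0.76 (SE 0.12) with MI-1061 and by 0.49 with MD-224. The all-gene medians were 0.996 and 0.48, so TMEM127 did not stand out from the listed genes. HLA-B, a class I heavy chain gene, rose by 1.14 with MI-1061 and was at 0.19 (adjusted p = 0.298) with MD-224. After NCS the MI-1061 comparison had 5 higher and 0 lower, beside 70.5% of all tested genes higher, and 0 higher and 3 lower with TMM scaling. Of 21 FBXW7 substrate genes 6 were listed. With MI-1061 3 were higher and 1 lower (1 and 3 under TMM scaling), beside 67.6% of all tested genes higher and 4.46% lower. With MD-224 1 was higher and 2 lower (0 and 2), beside 39.9% higher and 2.8% lower. Among them KLF5, a growth-related transcription factor, rose by 1.39 with MI-1061 and fell by 0.76 with MD-224 (log2; adjusted p = 0.0132), and JUNB, an AP-1 subunit, rose by 1.97 with MI-1061 and was at 0.69 with MD-224 (adjusted p = 0.0927). These are transcript levels, and protein turnover was not measured.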

How the data were processed

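Poly(A) RNA of 18 SJSA-1 libraries was measured. The values are normalized counts, deposited by the authors as a signal in which each library's reads are scaled by its own size factor. The submitters' processing notes list GRCh38, DESeq2 2.11.40.6, featureCounts 1.6.3 and HISAT2 2.0.5.2 without their roles. The annotation, strand setting and listing rule are not given in the sources used here. A treatment label spells the inhibitor with other digits than the titles, and the titles were followed. In all 18 libraries 100% of values were whole multiples of 1 step (tolerance 0.01 reads), giving size factors of 0.651 to 1.65 and 4490870 to 21816350 reads over the listed genes, which are not depths. A second check accepted that step in 13 libraries, so count tests used only the 9 libraries that had no NCS.

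Values were used as log2(value + 1). The filter kept 3073 of 3074 genes (10 or more in 3 or more libraries). These entered limma 3.58.1 (R 4.3.3), with the trend option and 1 model for the 6 groups, two-sided, in 9 pairwise comparisons and 2 interactions. Fold changes are on this scale and understate low genes. Alternatives were a pseudocount of 5, no filter, a mean of at least 50, TMM scaling, only the compared groups, a replicate block, each library left out and, chosen after the data were seen, edgeR 4.0.16 and DESeq2 1.42.0 on recovered reads. EdgeR called 1898 genes higher and 93 lower for MI-1061 against DMSO and DESeq2 1953 and 105. The scripts were also run on simulated counts, as a check of the code only. That simulation did not cover TMM scaling or a table in which most genes change. The members, gene lists and tests were chosen with earlier results of these data known. Named genes are the 5 members, MDM2 and CDKN1A, up to 4 genes per list with the smallest p under MI-1061, and the 3 genes nearest to each member.

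Replicate numbers were taken to pair libraries where every like-numbered pair had a residual correlation across genes above 0.1. This held in 7 of the 11 comparisons, and not in NCS against DMSO, NCS against no NCS under MI-1061 and the interactions. The main model had no replicate term in any comparison, so its standard errors and p-values do not use the pairing. Only the replicate block among the alternatives does. Plots were made in matplotlib 3.10.9 (Python 3.11.15).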

Additional observations from a re-analysis of the deposited data

Results flagged for a closer look

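For 2 genes the response to a compound differed between cells with and without NCS by the interaction term of limma. The log2 interaction of NCS and MD-224 was −0.88 for ZMAT3 (adjusted p = 0.0119) and −0.52 for RPS27L (adjusted p = 0.021), and that of NCS and MI-1061 was −0.52 for ZMAT3 (adjusted p = 0.0431). Of all tested genes 7.19% were lower and 4.07% higher in the MD-224 interaction. In the MI-1061 interaction 20.8% were lower and 23.5% higher, so 1 call among 5 genes is close to the background of the table. The ZMAT3 value with MD-224 kept its call under all 18 alternatives, whereas the RPS27L value lost it in 4 of 18 and the ZMAT3 value with MI-1061 in 11 of 18.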

How the results depend on the processing

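The pseudocount of 5, no filter and a mean of at least 50 left the direction and call of all 55 member values (5 genes in 11 comparisons) as they were. EdgeR and DESeq2 kept 14 of 15 values each, fits without 1 library 342 of 390, and fits of only the compared groups 53 of 55, where the members called for NCS against no NCS under MD-224 went from 1 to 0. The replicate block kept 54 of 55. For the MD-224 interaction, where numbers were not taken to pair libraries, the block brought CYFIP2 past the threshold (log2 −0.77, adjusted p = 0.0229), the members called went from 2 to 3, and all genes called from 125 higher and 221 lower to 212 and 400. Like-numbered residual correlations there were −0.020 to 0.472, and 11 of 12 libraries were closest to their own number, against 6 of 6 for NCS against DMSO, 3 of 6 for NCS against no NCS under MI-1061 and 12 of 12 for the MI-1061 interaction. The block also took the genes lower in NCS against no NCS under MD-224 from 18 to 40.

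TMM scaling kept 28 of 55. It takes most genes as steady, whereas all listed genes had a higher mean with NCS and MI-1061 than with DMSO. With it the members called were 0 for NCS against DMSO, where 456 of 3073 tested genes were higher and 467 lower. They were 3 for MD-224 against DMSO (all tested genes, 327 higher and 357 lower) and 3 for MD-224 after NCS (116 and 6). For MD-224 against MI-1061 after NCS they were 3 (357 and 549), and for NCS against no NCS under MI-1061 1 (930 and 729). The MI-1061 interaction had 0 (728 and 656) and the MD-224 interaction 1 (201 and 127). The sign turned for RPS27L, FBXW7 and SUSD6 in NCS against DMSO (log2 −0.16, −0.37 and −0.070), for ZMAT3 and RPS27L in MD-224 against MI-1061 without NCS (0.090 and 0.45) and for RPS27L after NCS (0.24). NCS against no NCS gave −0.17 for ZMAT3, −0.31 for RPS27L, −0.028 for FBXW7 and −0.018 for SUSD6 under MI-1061, and −0.36 for ZMAT3, −0.0046 for FBXW7, −0.071 for SUSD6 and −0.17 for CYFIP2 under MD-224. The cause of changes beyond the shift of all values was not tested.

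Without 1 library at a time, the members called were 2 to 4 in MD-224 against MI-1061 without NCS, 0 to 2 in NCS against no NCS under MD-224, 0 to 1 for the MI-1061 interaction and 1 to 3 for the MD-224 interaction. In the main fits of these comparisons, in the same order, 12.4%, 39%, 23.5% and 4.07% of all tested genes were higher. The shares lower were 49.8%, 0.586%, 20.8% and 7.19%. Uncalled values that changed sign were ZMAT3 in NCS against no NCS under MD-224 (−0.010 to 0.21), SUSD6 (−0.20 to 0.21) and CYFIP2 (−0.28 to 0.19) in the MI-1061 interaction, and SUSD6 in the MD-224 interaction (−0.28 to 0.023). With only the compared groups, genes called for MD-224 against DMSO went from 1225 higher and 86 lower to 749 and 46, and edgeR gave 45 and DESeq2 57 lower. Member reads were ample, so the 3 libraries a group set the precision.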
